A study of Mus musculus with 4 samples.

Results

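Transcripts of 6 genes that make, sense or remove extracellular adenosine were followed across the cell classes of mouse tumours. The genes were Entpd1, Nt5e, Cd38, Adora2a, Adora2b and Ada, taken by symbol from the 32285 genes counted, and all 6 were present. The tumours had grown under the skin of B6C3F1 mice, a hybrid of inbred strains, aged 6 to 8 weeks, from OV2944-HM1, a mouse ovarian cancer cell line. Mice of the IL-27 group received recombinant mouse interleukin 27 into the tumour, 100 ng per mouse, from the day of implantation and every other day after it, and mice of the control group received vehicle. On day 14 the tumours were digested, cells carrying CD45 (a surface protein of leukocytes) were enriched with magnetic beads, and their RNA was read with a droplet 5′ single-cell kit. Each group was 1 matrix of UMI counts (unique molecular identifiers, 1 per captured transcript), so n = 1 per group and no difference below has a replicate check or a p-value. Although 2 entries stand under each group in the labels, only 1 matrix per group was given, and the number of animals behind it is not stated there.

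CD39, the product of Entpd1, strips ATP and ADP down to AMP on the cell surface, and CD73, the product of Nt5e, turns AMP into adenosine. CD38 consumes NAD and can feed the same route through ADP-ribose. Adenosine is read by the receptors encoded by Adora2a and Adora2b, which couple to the stimulatory G protein and raise cyclic AMP, and it is removed by adenosine deaminase (Ada), which turns it into inosine. In tumours this pathway is known for damping T cell and NK cell responses and for acting on myeloid cells.

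All 6 genes are protein coding in GENCODE M21 on GRCm38. Entpd1 (ENSMUSG00000048120) spans chr19:40612366-40741602 on the plus strand, where AC166063.1 overlaps it on the same strand. Nt5e (ENSMUSG00000032420) spans chr9:88327197-88372092 on the plus strand. Cd38 (ENSMUSG00000029084) spans chr5:43868553-43912375 on the plus strand and overlaps Gm16014 on the same and Gm16015 on the other strand. Adora2a (ENSMUSG00000020178) lies at chr10:75316877-75334784 and Adora2b (ENSMUSG00000018500) at chr11:62248984-62266453, both on the plus strand. Ada (ENSMUSG00000017697) lies at chr2:163726584-163750239 on the minus strand. Reads from the overlapping genes could be counted differently under another annotation.

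The DNA around the annotated starts of Entpd1 and Adora2b is shown first, because in neutrophil-like cells, the largest class, Entpd1 was the gene of the 6 with most UMIs and Adora2b the one past 1.5-fold in the other direction. RefSeq (GRCm38.p6) promoter windows, from 250 bases before to 50 bases after a start, were found for 5 of the 6 genes, all but Adora2a. Entpd1 has 2 such windows on the plus strand, an upstream one at chr19:40612116-40612415 and a downstream one at chr19:40659520-40659819. Adora2b has 1, at chr11:62248734-62249033 on the plus strand. A set of 4 motifs was searched on both strands in these windows of 300 bases. The core of a cyclic AMP response element was searched as TGACG, the core of a hypoxia response element as ACGTG, the TATA box as TATAAA and the Sp1 box as GGGCGG. Capitals mark matches on either strand, of TGACG in both Entpd1 windows and of GGGCGG in the Adora2b window.
Entpd1 upstream start: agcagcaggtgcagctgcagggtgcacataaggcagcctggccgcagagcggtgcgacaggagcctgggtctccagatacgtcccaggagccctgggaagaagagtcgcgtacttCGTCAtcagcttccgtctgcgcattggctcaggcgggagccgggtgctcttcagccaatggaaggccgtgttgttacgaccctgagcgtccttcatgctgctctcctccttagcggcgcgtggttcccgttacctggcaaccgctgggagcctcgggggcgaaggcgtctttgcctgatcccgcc
Entpd1 downstream start: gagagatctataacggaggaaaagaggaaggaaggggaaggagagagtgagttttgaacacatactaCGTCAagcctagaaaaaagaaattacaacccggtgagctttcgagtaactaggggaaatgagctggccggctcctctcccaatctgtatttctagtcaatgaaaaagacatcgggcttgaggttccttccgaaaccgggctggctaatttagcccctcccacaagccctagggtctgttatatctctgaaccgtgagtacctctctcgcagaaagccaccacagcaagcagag
Adora2b start: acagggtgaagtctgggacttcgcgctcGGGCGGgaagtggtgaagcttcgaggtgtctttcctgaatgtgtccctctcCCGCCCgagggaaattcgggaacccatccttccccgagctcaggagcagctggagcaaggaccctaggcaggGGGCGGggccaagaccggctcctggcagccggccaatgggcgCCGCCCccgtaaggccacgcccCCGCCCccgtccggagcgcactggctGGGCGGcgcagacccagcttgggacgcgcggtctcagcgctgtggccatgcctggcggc
Each Entpd1 window held 1 TGACG and none of the other motifs, and 20.8% of 32851 promoters hold TGACG. The Adora2b window held 6 GGGCGG and none of the others, and 35.7% of promoters hold GGGCGG. Nt5e had 4 GGGCGG in its window, Ada had 2, and Cd38 had none of the 4 motifs. ACGTG stands in 19.6% and TATAAA in 13.6% of all promoters and in none of the windows of the 5 genes. A match is a description of the sequence, not a binding site.

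Depth was 43868189 UMIs over 10183 barcodes with IL-27 and 54049661 UMIs over 10784 barcodes in the control. After filtering, 9990 IL-27 cells and 10617 control cells remained, with medians of 1870.5 and 2408 UMIs per cell and of 0.606% and 0.356% mitochondrial UMIs. The matrices shared 133 cell barcodes, and without them each of 47 ratios of the 6 genes stayed inside its interval. Cells were put into classes by how many markers of a lineage had a UMI, and none of the 6 genes was a marker. The word "like" in a class name records that the class rests on transcripts alone. Although the labels call the cells lymphocytes, the largest class was neutrophil-like, with 3568 of the IL-27 cells (35.7%) and 4365 of the control cells (41.1%), and all 8 neutrophil markers were detected in it in both matrices. C1q macrophage-like cells (1153 and 1438), Dcstamp macrophage-like cells (933 and 668), Treg-like cells (277 and 187), mature dendritic-like cells (199 and 145), monocyte-like cells (178 and 150), tumour-like cells (147 and 212), NK-like cells (107 and 68), type 2 dendritic-like cells (103 and 85), CD8 T-like cells (80 and 231) and type 1 dendritic-like cells (60 and 53) completed the 11 classes compared, each pair giving the IL-27 matrix and then the control matrix. Cells with markers of several lineages (702 and 888) and cells that met no gate (1864 and 1667) were left out of the classes.

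Levels are in CPM, the UMIs of a gene per 1000000 UMIs of the class, with 95% Poisson intervals, and ratios are IL-27 over control with 95% binomial intervals. All intervals cover counting error only. The 6 genes were spread over the classes in different ways, as the bars of UMIs by class show. Neutrophil-like cells held 72.8% of all Entpd1 UMIs in the IL-27 matrix and 70.1% in the control matrix. C1q macrophage-like cells were the largest holder of Cd38, with 33.3% and 33.9% of its UMIs. The share of Nt5e UMIs in Treg-like cells was 21.9% in the IL-27 matrix and 10.6% in the control matrix, and the share of Adora2b UMIs in neutrophil-like cells was 17.6% and 33.5%. Such shares depend on how many cells of each class were captured as well as on their level.

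**Figure D1:**
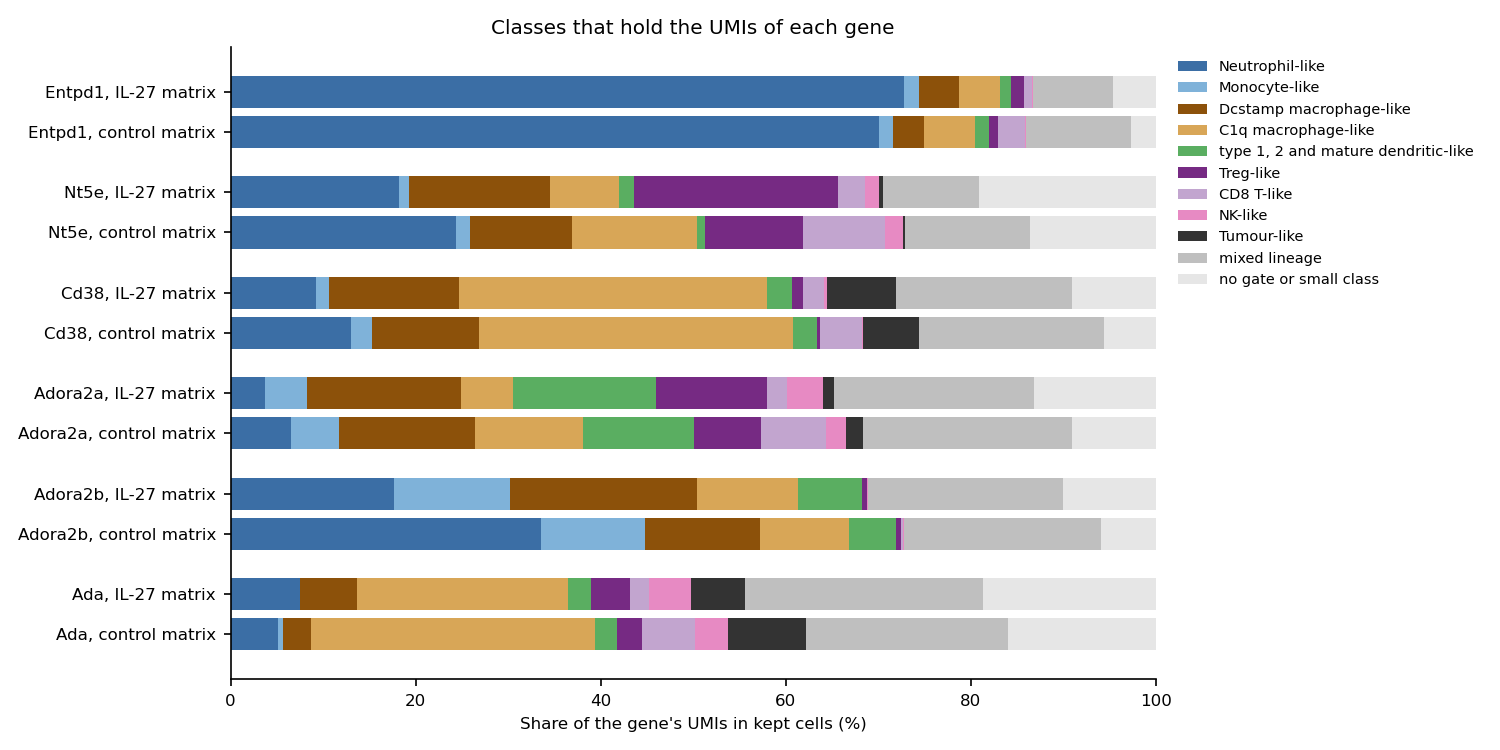
Share of each gene's UMIs (x axis, %) held by each class of cells, 1 bar per gene and matrix (IL-27 above control). Entpd1 is mostly neutrophil-like in both matrices (72.8% and 70.1%), whereas Adora2a is spread over macrophage-, dendritic-, T- and NK-like cells.

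Entpd1, the ATP-degrading enzyme that opens the route, was detected at 984 CPM (959 to 1009, 6098 UMIs) in neutrophil-like cells of the IL-27 matrix and at 581 CPM (566 to 596, 5988 UMIs) in those of the control matrix. In both matrices this was above every other class compared, with no overlap of intervals. Monocyte-like cells followed with 140 CPM in the IL-27 matrix and 126 CPM in the control matrix. CD8 T-like cells came close to them, with 114 and 109 CPM, and the intervals of these 2 classes overlapped in both matrices. Dcstamp macrophage-like cells (94.4 and 80.3 CPM) and C1q macrophage-like cells (94.3 and 75.8 CPM) could not be put in order. Treg-like cells, the class in which CD39 is best known in T cell biology, held 66.2 and 59.0 CPM, below the CD8 T-like cells with no overlap of intervals. NK-like cells (6.95 and 19.2 CPM) and mature dendritic-like cells (9.12 and 14.7 CPM) were lowest among the leukocyte classes of the 11. Tumour-like cells had 0 UMIs in the IL-27 matrix, which allows up to 0.445 CPM at 3 counts, and 2 UMIs in the control matrix.

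The share of cells with an Entpd1 UMI was compared at equal depth, because a deeper cell shows a given transcript more often. With every cell thinned to 1000 UMIs, 51.5% (49.7 to 53.3) of 3000 IL-27 and 36.0% (34.5 to 37.5) of 3942 control neutrophil-like cells had at least 1 Entpd1 UMI, and 568 and 423 shallower cells were left out. Unthinned, the shares were 60.99% and 54.66%, at median depths of 1623.5 and 2171 UMIs. Tumour-like cells, an epithelial class, gave 0 of 145 IL-27 cells and 1 of 205 control cells after the same thinning. Their full median depths were 42622 and 37473.5 UMIs, so free RNA would be a small part of each cell. The 8 neutrophil markers summed to 9.79 and 13.05 CPM in them, but to 3612 and 3738 CPM in C1q macrophage-like cells. Tumour-like shares, here and for the genes below, therefore do not measure free RNA in shallower cells, which was not tested. Thinned shares were 16.7% and 12.7% in CD8 T-like cells (46.2% and 52.8% unthinned), and 6.93% and 8.02% in Treg-like cells (26.7% in both unthinned). Neutrophil-like cells thus stood apart from all of these in both matrices.

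**Figure D2:**
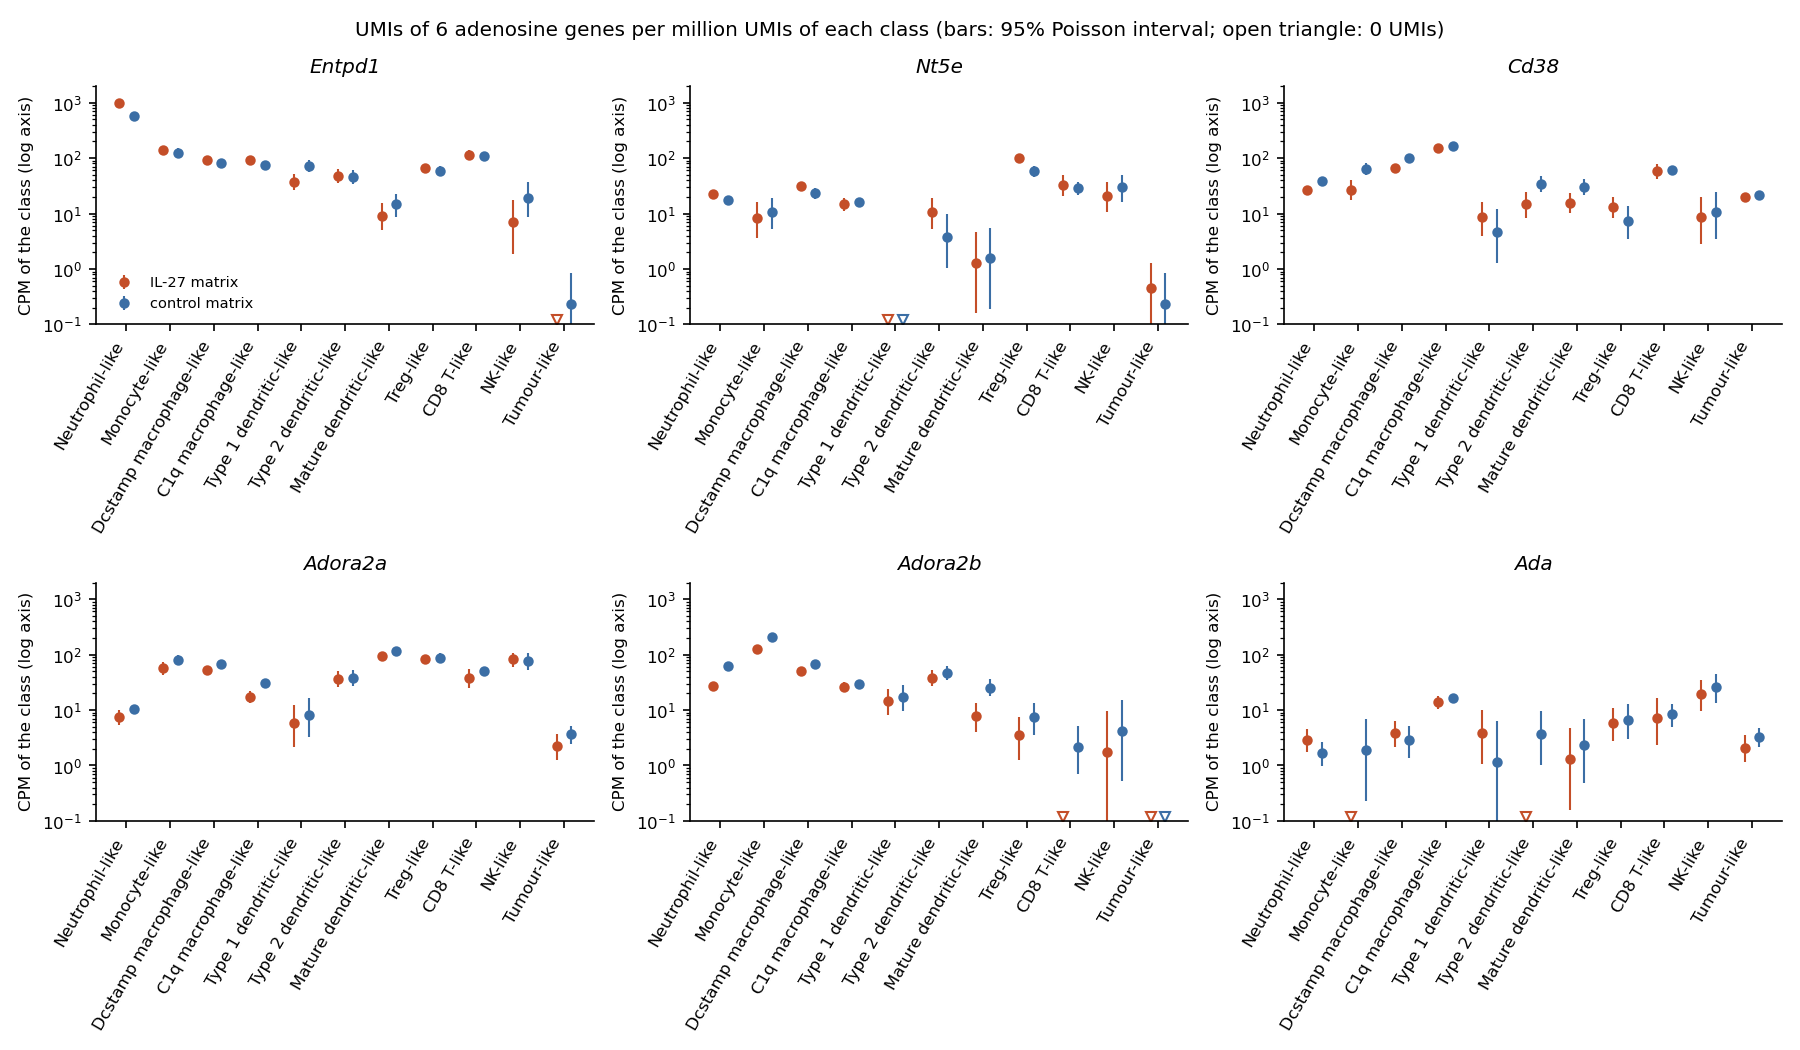
Level of each gene (y axis, UMIs per 1000000 UMIs of the class, log axis) in 11 cell classes, IL-27 matrix in orange to the left of the control matrix in blue; bars are 95% Poisson intervals and open triangles mark 0 UMIs. Entpd1 peaks in neutrophil-like, Nt5e in Treg-like, Cd38 in C1q macrophage-like and Adora2b in monocyte-like cells of both matrices.

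Between the matrices, the neutrophil-like level of Entpd1 was higher with IL-27 by a ratio of 1.69 (1.63 to 1.75). Of the 9238 genes with at least 20 UMIs in this class, 11.8% were at least 1.5-fold higher and 9.47% at least 1.5-fold lower in the IL-27 matrix; among the 6 adenosine genes, Entpd1 and Ada were past that fold upward and Adora2b downward. The Ada value rests on 18 and 17 UMIs, and its interval runs from 0.856 to 3.64. The Entpd1 ratio stayed between 1.66 and 1.77 under all 9 alternative settings. Neutrophil-like cells of the IL-27 matrix were shallower, so the comparison was repeated within bins of depth. The ratio was 1.43 in cells of 500 to under 1000 UMIs, 1.74 from there to under 2000, 1.79 from there to under 4000 and 1.26 (1.09 to 1.45) from 4000 upward, a bin of 67 IL-27 and 370 control cells. Entpd1 was thus higher in the IL-27 matrix in each of the 4 bins, with the smallest ratio in the deepest. Markers of other cells were also present in this class. The 8 neutrophil markers summed to 39160 CPM in the IL-27 matrix and 43480 CPM in the control matrix. The 5 endothelial markers, Pecam1 among them, summed to 96.6 and 48.8 CPM, with Cldn5 at 0 in the IL-27 matrix and Cdh5 and Kdr at 0 in the control matrix. In NK-like cells the same 5 summed to 193 and 160 CPM with Cdh5, Kdr and Cldn5 at 0 in both matrices. Their sum thus does not by itself mark endothelial cells. The 5 eosinophil markers summed to 29.7 and 18.2 CPM, with Epx at 0 in both matrices and Prg2 at 0 in the control matrix. The 6 mononuclear phagocyte markers summed to 304 and 360 CPM, the 6 monocyte markers to 121 and 176 CPM, the 4 Dcstamp macrophage markers to 109 and 69.3 CPM and the 6 C1q macrophage markers to 75.7 and 63.5 CPM, all of them detected. The part of these cells in the result was not tested.

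Within neutrophil-like cells Entpd1 differed with genes of cell state, chosen here after earlier results were known. Cxcr2, Retnlg and Mmp9 are also among the 8 markers that set this class. A split by them therefore separates cells by how they met the gate as well as by state. Cells with a UMI of Cxcr2, the receptor that guides neutrophils out of the marrow and into tissue, had 1370 CPM of Entpd1 in the IL-27 matrix and 810 CPM in the control matrix. Cells without one had 751 CPM and 422 CPM. The ratio between matrices was 1.69 with and 1.78 without a Cxcr2 UMI. Retnlg, a secreted product of mature neutrophils, sorted the cells in the same direction, with 1307 against 875 CPM in the IL-27 matrix and 787 against 487 CPM in the control matrix. Mmp9, a granule protease, did not, with 884 against 1112 CPM in the IL-27 matrix and 579 against 584 CPM in the control matrix. Cells with a UMI of Ccl4, a chemokine of activated cells, were lower than cells without one, with 820 against 1259 CPM in the IL-27 matrix and 487 against 735 CPM in the control matrix. Hilpda, a hypoxia-responsive lipid droplet gene, gave 887 against 1129 CPM in the IL-27 matrix and 522 against 752 CPM in the control matrix, and Cd274, which encodes PD-L1, gave 913 against 1145 CPM and 534 against 763 CPM. Cells with a UMI of Siglecf, a lectin of eosinophils that tumour neutrophils can also carry, numbered 98 and 109 and had the least Entpd1, 446 CPM in the IL-27 matrix and 366 CPM in the control matrix. Their ratio of 1.22 (0.916 to 1.62) was the only one, among cells with and without each of 11 state genes, whose interval held 1. Having a UMI of a state gene also depends on depth. In cells thinned to 1000 UMIs the split by Cxcr2 went the same way, with Entpd1 detected in 67.7% of cells with and 46.3% of cells without a Cxcr2 UMI in the IL-27 matrix and in 51.5% and 31.3% in the control matrix.

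**Figure D3:**
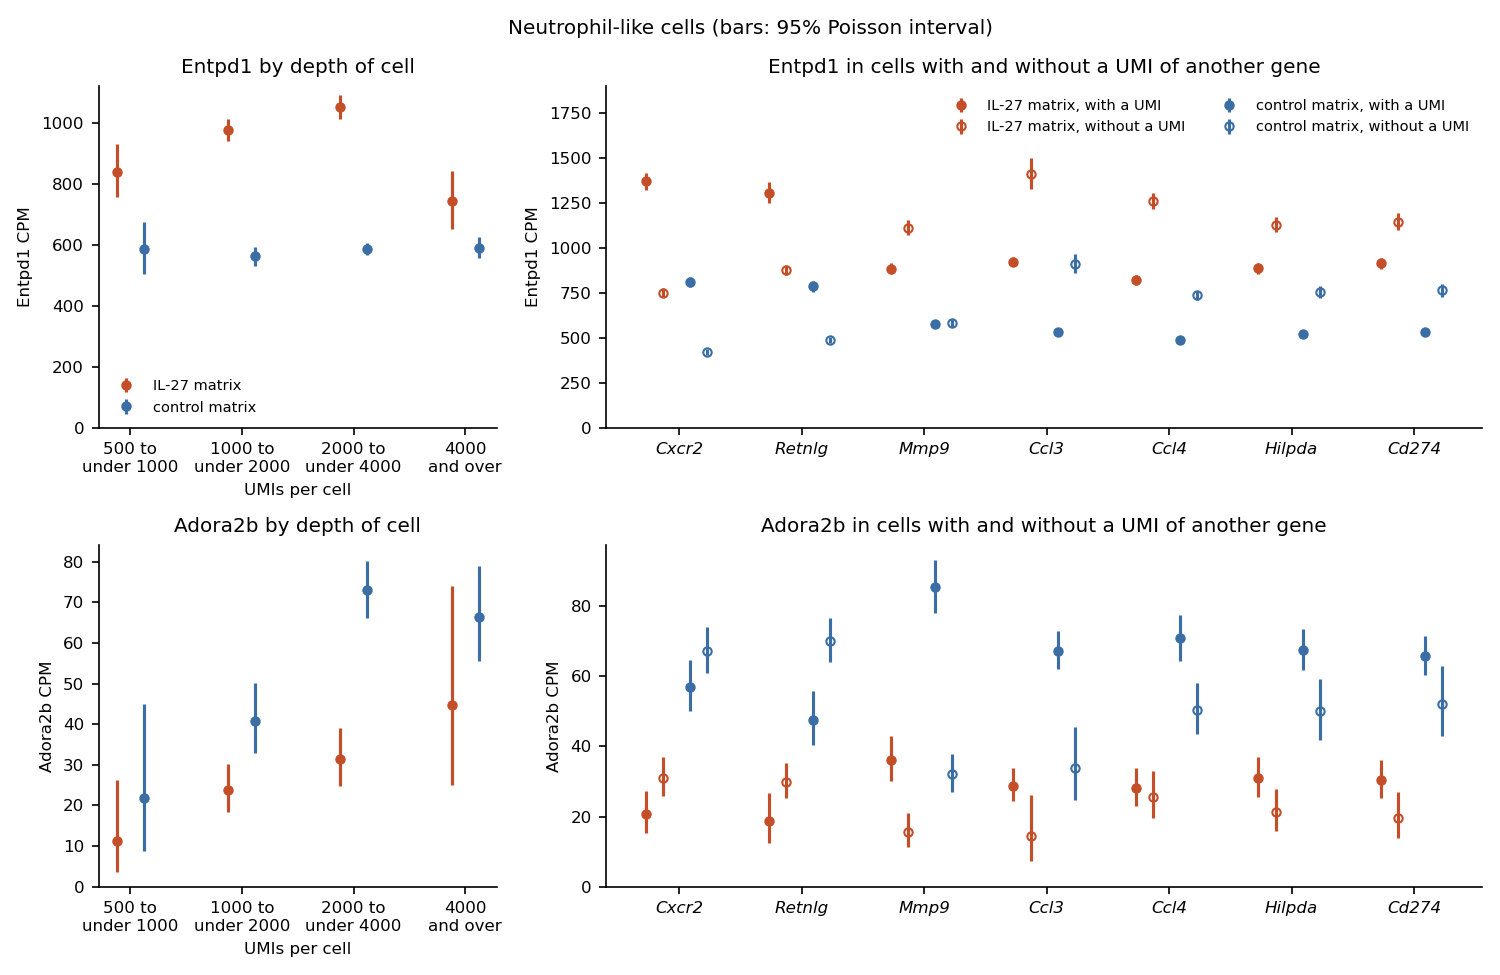
Entpd1 (upper row) and Adora2b (lower row) in neutrophil-like cells, as CPM with 95% Poisson intervals, by UMIs per cell (left) and in cells with (filled) or without (open) a UMI of a state gene (right); IL-27 in orange, control in blue. Entpd1 is higher and Adora2b lower in the IL-27 matrix in every pair drawn, with Entpd1 ratios from 1.26 to 1.79 over the depth bins.

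Entpd1 was within 1.5-fold in several other classes. The ratio was 1.25 (1.08 to 1.43) for C1q macrophage-like cells, and for Dcstamp macrophage-like cells it was 1.18 (1.00 to 1.38). Neither kept its direction in all 9 alternative settings, which gave 0.986 to 1.33 in C1q and 0.810 to 1.22 in Dcstamp macrophage-like cells. The 8 markers of neutrophils, the class with most Entpd1, were all detected in both macrophage classes. They summed to 3612 CPM in the IL-27 matrix and 3738 CPM in the control matrix in C1q macrophage-like cells. In Dcstamp macrophage-like cells the sums were 1516 and 1789 CPM. The part of neutrophil RNA in the Entpd1 levels and ratios of these 2 classes was not tested. Treg-like cells (1.12, 0.835 to 1.51), monocyte-like cells (1.11, 0.867 to 1.42) and CD8 T-like cells (1.05, 0.806 to 1.35) had intervals that held 1. Type 1 dendritic-like cells went the other way, with 37.6 CPM (39 UMIs) in the IL-27 matrix and 72.0 CPM (62 UMIs) in the control matrix, a ratio of 0.522 (0.341 to 0.792). In this class 9.25% of 6803 genes were at least 1.5-fold lower and 12.7% at least 1.5-fold higher; Entpd1 was lower and Adora2b, the other of the 6 genes with at least 20 UMIs, was not past the fold. This class holds 60 and 53 cells. The ratio was 0.830 with classes taken from clusters, 0.760 with a stricter gate and 0.124 in cells thinned to 1000 UMIs. The thinned value rests on 1 of 60 IL-27 and 7 of 52 control cells with an Entpd1 UMI. Several markers of other myeloid cells were lower in the IL-27 matrix in this class, with sums of 16.4 against 63.8 CPM for the 6 C1q macrophage markers (Trem2 at 0 with IL-27), 121 against 183 CPM for the 4 Dcstamp macrophage markers (Ccl24 at 0 with IL-27) and 29.9 against 52.2 CPM for the 8 neutrophil markers (Csf3r, Cxcr2 and Retnlg at 0 in both). The 6 monocyte markers summed to 375 and 320 CPM, with Vcan, Chil3 and F13a1 at 0 in both matrices. Their part in the result was not tested. The 3 cells with most Entpd1 carried 28.2% of its UMIs in the IL-27 matrix and 29.0% in the control matrix.

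Nt5e, which encodes the enzyme that makes adenosine from AMP, was highest in T cell classes. It reached 99.2 CPM (171 UMIs) in Treg-like cells with IL-27 and 57.6 CPM (78 UMIs) in those of the control, above each of the other 10 classes in both matrices. A pair of smaller T cell classes lay near this level. CD4 T-like cells, which had a Cd4 UMI and none of Foxp3 or Cd8, held 68.4 CPM (36 UMIs) in the IL-27 matrix and 87.0 CPM (21 UMIs) in the control matrix, and the remaining T-like cells held 88.1 CPM (62 UMIs) and 77.7 CPM (48 UMIs). CD8 T-like cells (32.5 and 28.6 CPM), Dcstamp macrophage-like cells (31.0 and 23.2 CPM) and NK-like cells (20.9 and 29.9 CPM) could not be ordered. Neutrophil-like cells had 22.9 and 17.4 CPM, and type 1 dendritic-like cells had 0 UMIs in both matrices, which allows up to 2.89 and 3.48 CPM. Thinned to 1000 UMIs, 10.9% of 274 IL-27 and 9.09% of 187 control Treg-like cells had an Nt5e UMI (34.3% and 27.3% unthinned, at medians of 4301 and 5094 UMIs). For comparison, type 1 dendritic-like cells gave 0 of 60 and 0 of 52, which allows up to 5.96% and 6.85% by the exact interval.

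In Treg-like cells the Nt5e ratio was 1.72 (1.31 to 2.28). Across this class 10.0% of 8768 genes were at least 1.5-fold higher and 9.91% at least 1.5-fold lower, and of the 4 adenosine genes with enough UMIs Nt5e and Cd38 were past the fold upward and none downward. The Cd38 value rests on 23 and 10 UMIs, with an interval of 0.828 to 4.26, and was 0.996 with classes from clusters. The Nt5e ratio was 1.52 to 1.87 under 8 of 9 alternatives but 1.15 (0.632 to 2.15) with cells thinned to 1000 UMIs, where the shares above are close. By depth, the ratio was 1.95 (1.03 to 4.03) in Treg-like cells of 2000 to under 4000 UMIs and 1.62 (1.18 to 2.24) in deeper ones. In cells of 1000 to under 2000 UMIs, with 4 UMIs in each matrix, it was 0.371 (0.0691 to 1.99). Entpd1 and Adora2a, the other 2 genes, had ratios of 1.12 and 0.965 in Treg-like cells with intervals that held 1. The 5 markers of regulatory T cells summed to 5273 CPM in the IL-27 matrix and 5204 CPM in the control matrix. In neutrophil-like cells Nt5e had a ratio of 1.32 (1.05 to 1.65), and in Dcstamp macrophage-like cells 1.34 (1.00 to 1.80). C1q macrophage-like cells, with 14.7 CPM in the IL-27 matrix and 15.9 CPM in the control matrix, gave 0.928 (0.659 to 1.30).

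Cd38, the NAD-consuming ectoenzyme, was highest in the macrophage classes among the 11 compared. C1q macrophage-like cells had 153 CPM (603 UMIs) in the IL-27 matrix and 165 CPM (1029 UMIs) in the control matrix, above each of the other 10 classes compared in both. Outside them, endothelial-like cells had 101 and 165 CPM, from 5 and 6 UMIs, and other phagocyte-like cells 87.6 and 110.0 CPM. Within the 11, Dcstamp macrophage-like cells followed with 66.5 and 100.6 CPM, and CD8 T-like cells had 57.9 and 59.8 CPM. Monocyte-like cells held 27.0 and 63.0 CPM and neutrophil-like cells 26.9 and 38.4 CPM. Tumour-like cells had 20.02 and 21.4 CPM, and mast cell- or basophil-like cells, 34 and 41 in number, had none. Thinned shares were 13.9% of 981 IL-27 and 17.4% of 1267 control C1q macrophage-like cells (31.2% and 41.7% unthinned), set beside 2.07% of 145 and 0.488% of 205 tumour-like cells. Unthinned, 40.8% and 42.9% of tumour-like cells had a Cd38 UMI, at the median depths of 42622 and 37473.5 UMIs given above. The tumour-like Cd38 level is thus not at 0, and whether it is free RNA was not tested.

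Between the matrices Cd38 was lower with IL-27 in most myeloid classes. Its ratio was 0.428 (0.261 to 0.683) in monocyte-like cells, 0.420 (0.214 to 0.783) in type 2 dendritic-like cells and 0.519 (0.299 to 0.885) in mature dendritic-like cells, and these rest on 26, 15 and 24 UMIs in the IL-27 matrix and 66, 37 and 39 in the control matrix. Dcstamp macrophage-like cells, with 255 and 352 UMIs, gave 0.661 (0.560 to 0.779), and neutrophil-like cells 0.701 (0.582 to 0.842). In C1q macrophage-like cells, where the gene was highest, the ratio was 0.928 (0.838 to 1.03), and in CD8 T-like cells 0.969 (0.666 to 1.38). Over the 9 classes with at least 20 UMIs, 8 ratios were below 1, of which 5 had an interval below 1. These classes come from the same 2 matrices and are not replicates. Type 2 dendritic-like cells had 11.8% of 7111 genes at least 1.5-fold lower and 10.5% at least 1.5-fold higher, and Cd38 was the only one of 4 adenosine genes past the fold there. With a looser gate its ratio was 0.698, within the fold. In this class the 6 C1q macrophage markers summed to 710 CPM in the IL-27 matrix and 1096 CPM in the control matrix, and the 8 neutrophil markers to 293 and 475 CPM, all detected. The 4 Dcstamp macrophage markers, all detected, were closer, at 2222 and 2353 CPM. The 6 monocyte markers went the other way, at 635 and 562 CPM, with Chil3 at 0 in the control matrix. Their part in the result was not tested. In the mature dendritic-like class, 12.8% of 7930 genes were at least 1.5-fold lower and 14.7% higher, and 3 of 4 adenosine genes, Entpd1, Cd38 and Adora2b, were past the fold downward. The Entpd1 value there, 0.621, rests on 14 and 19 UMIs and its interval holds 1. The Cd38 value was 1.41 in cells thinned to 1000 UMIs, but from only 2 of 182 IL-27 and 1 of 128 control cells. In the mature dendritic-like class the markers of other myeloid classes were also lower in the IL-27 matrix, with sums of 84.1 against 265 CPM for the 6 monocyte markers, all detected, and 666 against 1466 CPM for the 4 Dcstamp macrophage markers, all detected. Their part in the result was not tested.

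**Figure D4:**
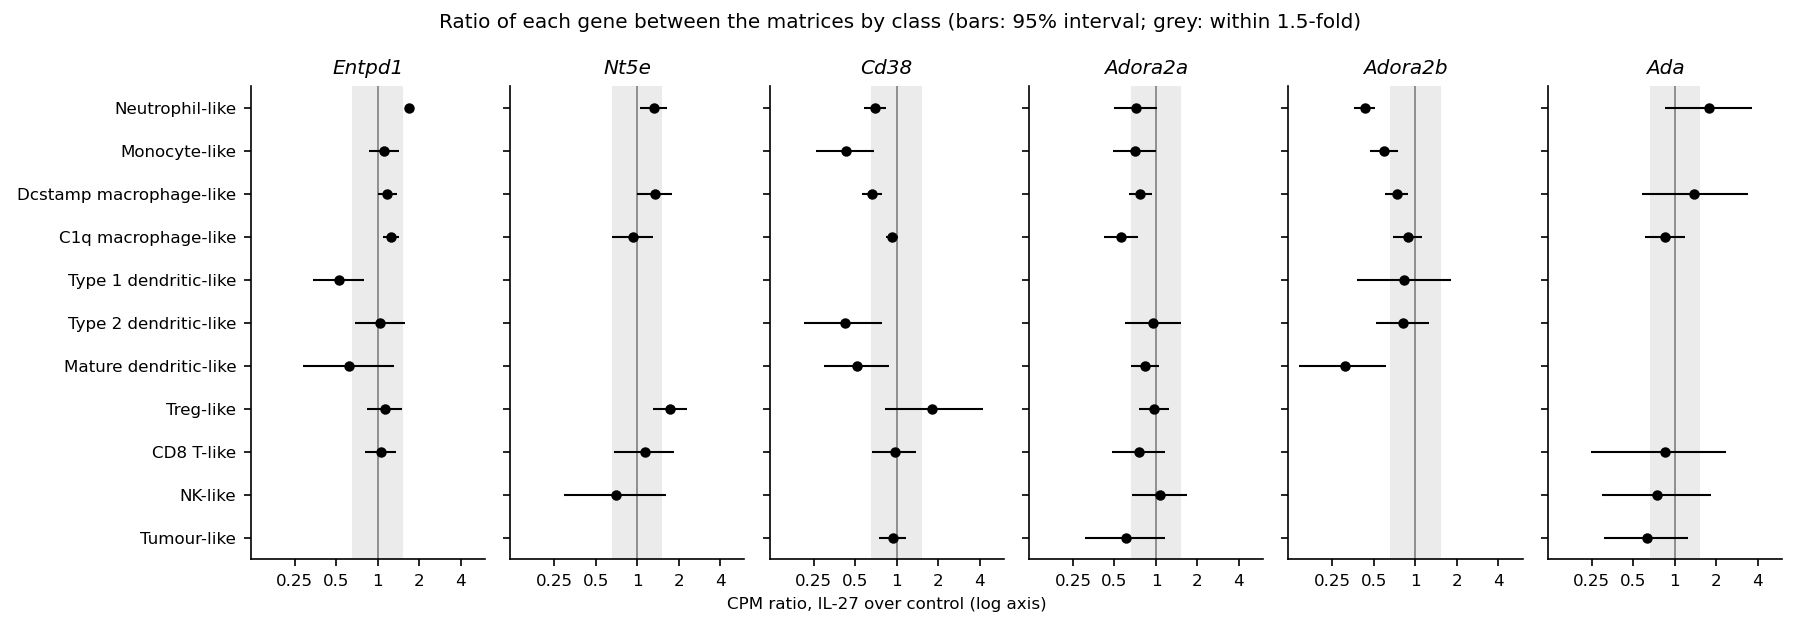
Ratio of CPM, IL-27 over control (x axis, log scale), for each gene in each class with at least 20 UMIs over both matrices; bars are 95% binomial intervals for counting error and the grey band marks ratios within 1.5-fold. Adora2b lies below 1 in all 7 classes drawn and Cd38 in 8 of 9, while Entpd1 in neutrophil-like cells lies at 1.69.

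Adora2a, which encodes the high-affinity adenosine receptor, was detected in dendritic, lymphoid, monocyte and macrophage classes, and its 5 highest classes included lymphoid and myeloid ones. Mature dendritic-like cells had 95.1 CPM (146 UMIs) in the IL-27 matrix and 114 CPM (148 UMIs) in the control matrix. Treg-like cells had 84.7 and 87.8 CPM, NK-like cells 81.7 and 76.9 CPM, monocyte-like cells 57.0 and 81.2 CPM, and Dcstamp macrophage-like cells 53.2 and 68.9 CPM. No neighbours among these 5 classes were separated by their intervals in either matrix. CD8 T-like cells (38.1 and 50.6 CPM) and type 2 dendritic-like cells (37.0 and 38.6 CPM) came next. C1q macrophage-like cells, with 17.3 and 30.9 CPM, stood above neutrophil-like cells, with 7.42 and 10.4 CPM, in both matrices. Type 1 dendritic-like cells held 5.78 and 8.12 CPM. Thinned shares were 11.3% and 10.2% in Treg-like cells and 7.14% and 8.59% in mature dendritic-like cells, and unthinned 33.6% and 42.8% and then 40.2% and 48.3%. Tumour-like cells gave 0 of 145 and 0 of 205 after thinning, which allows up to 2.51% and 1.78% by the exact interval, and 10.2% and 14.2% unthinned.

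Among the classes where Adora2a was highest, some ratios had an interval that held 1 and others had an interval below 1. The interval held 1 in Treg-like (0.965, 0.752 to 1.24), NK-like (1.06, 0.674 to 1.69) and mature dendritic-like cells (0.832, 0.657 to 1.05). It lay below 1 in Dcstamp macrophage-like cells (0.772, 0.638 to 0.935) and in monocyte-like cells (0.703, 0.491 to 0.998). The monocyte-like value rests on 55 UMIs in the IL-27 matrix and 85 in the control matrix. In C1q macrophage-like cells, where the level was lower than in these classes, the ratio was 0.558 (0.417 to 0.739). Among 10340 genes in C1q macrophage-like cells 6.18% were at least 1.5-fold lower and 6.18% higher, and Adora2a was the only one of 6 adenosine genes past the fold. With a looser gate that ratio was 0.874, and with classes from clusters 0.795, both within 1.5-fold. In the Dcstamp class 8.14% of 9434 genes were past the fold downward and 7.2% upward, and Cd38 was the only adenosine gene among them. That call was lost in 3 of 9 alternatives, with ratios of 0.719 under a looser gate, 0.716 in thinned cells and 0.784 with classes from clusters. CD4 T-like cells, a class of 116 and 49 cells, had 47.5 CPM in the IL-27 matrix and 95.3 CPM in the control matrix from 25 and 23 UMIs.

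Adora2b, which encodes the lower-affinity adenosine receptor, was highest in monocyte-like cells and was detected mainly in myeloid classes. Monocyte-like cells had 124 CPM (120 UMIs) in the IL-27 matrix and 209 CPM (219 UMIs) in the control matrix, above every other class in both. Dcstamp macrophage-like cells had 50.1 and 68.6 CPM, type 2 dendritic-like cells 38.0 and 47.0 CPM, neutrophil-like cells 27.1 and 63.0 CPM, and C1q macrophage-like cells 26.4 and 29.95 CPM. In Treg-like cells 6 and 10 UMIs were found, in CD8 T-like cells 0 and 5, in NK-like cells 1 and 2, and in tumour-like cells none in either matrix. The receptor pair thus had different distributions, with Adora2a among both lymphoid and myeloid classes at its 5 highest levels and Adora2b at no more than 10 UMIs in any lymphoid class of the 11. Thinned shares were 10.8% of 176 and 14.8% of 149 monocyte-like cells (42.7% and 64.0% unthinned) and 2.73% of 3000 and 4.79% of 3942 neutrophil-like cells (3.67% and 9.71% unthinned), set beside 0 of 145 and 0 of 205 tumour-like cells.

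In neutrophil-like cells the Adora2b ratio was 0.430 (0.361 to 0.510), from 168 UMIs in 131 cells of the IL-27 matrix and 650 UMIs in 424 cells of the control matrix. It stayed past 1.5-fold in all 9 alternatives, between 0.330 and 0.527. The monocyte markers summed, as given above, to 121 CPM in the IL-27 matrix and 176 CPM in the control matrix in this class, and the 5 markers of immature neutrophils to 58.4 and 98.0 CPM, with Elane at 0 in the IL-27 matrix. Their part in the result was not tested. By depth, the ratio was 0.582 (0.420 to 0.803) in cells of 1000 to under 2000 UMIs and 0.430 (0.333 to 0.547) in those of 2000 to under 4000, and the shallower and deeper bins, with 5 and 15 UMIs in the IL-27 matrix, gave 0.518 and 0.675 with intervals that held 1. Cells with a UMI of Mmp9, a granule protease, had more Adora2b than cells without, 36.1 against 15.5 CPM in the IL-27 matrix and 85.4 against 32.1 CPM in the control matrix. After thinning, 3.59% against 2.12% of cells in the IL-27 matrix and 7.27% against 3.39% in the control matrix had an Adora2b UMI. Cxcr2 and Retnlg, like Mmp9 markers of the class, went the other way. Adora2b was at 20.6 CPM with and 31.0 CPM without a Cxcr2 UMI in the IL-27 matrix, and at 57.0 and 67.25 CPM in the control matrix. For Retnlg the levels were 18.6 against 29.9 CPM and 47.5 against 70.1 CPM. Siglecf-bearing cells had the highest level, 75.1 CPM (16 UMIs) in the IL-27 matrix and 183 CPM (55 UMIs) in the control matrix. Entpd1 and Adora2b therefore lay in opposite directions in this class between the matrices and between cells with and without Siglecf. This was not so for every state gene. With a UMI of Hcar2, which encodes a receptor of niacin, both were lower than without. Entpd1 was at 966 against 1061 CPM in the IL-27 matrix and 535 against 772 CPM in the control matrix. Adora2b was at 25.0 against 36.1 CPM and 59.7 against 77.0 CPM.

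Monocyte-like cells gave an Adora2b ratio of 0.595 (0.472 to 0.747). In this class 11.9% of 6714 genes were at least 1.5-fold lower and 10.2% at least 1.5-fold higher, and 2 of 4 adenosine genes, Cd38 and Adora2b, were lower past that fold. The 4 Dcstamp macrophage markers summed to 1867 CPM in the IL-27 matrix and 996 CPM in the control matrix in these cells, and the 6 monocyte markers to 4143 and 4547 CPM, all of them detected. The part of this difference in the result was not tested. Dcstamp macrophage-like cells gave 0.730 (0.601 to 0.886), mature dendritic-like cells 0.307 (0.144 to 0.609) from 12 and 33 UMIs (0.703 in cells thinned to 1000 UMIs), and C1q macrophage-like cells 0.881 (0.686 to 1.12). The thinned mature dendritic-like value rests on 4 of 182 IL-27 and 5 of 128 control cells with an Adora2b UMI. All 7 classes with at least 20 Adora2b UMIs had ratios below 1, and 4 of them had intervals below 1.

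Ada, which encodes the enzyme that removes adenosine, had the fewest UMIs of the 6 genes, 241 UMIs in 199 cells of the IL-27 matrix and 333 UMIs in 296 cells of the control matrix. C1q macrophage-like cells held 55 and 102 of these, at 13.9 and 16.3 CPM. NK-like cells had 19.1 and 25.6 CPM from 11 and 12 UMIs, of which the 3 highest cells held 63.6% and 66.7%. Mast cell- or basophil-like cells had 47.2 and 36.5 CPM from 10 UMIs in each matrix. Every ratio of Ada over the 6 classes with at least 20 UMIs had an interval that held 1, and the ratio in C1q macrophage-like cells was 0.854 (0.604 to 1.20). Its thinned share there was 1.22% and 2.13% (4.25% and 6.68% unthinned), set beside 0 of 145 and 0.976% of 205 tumour-like cells (8.16% and 10.8% unthinned), whose thinned intervals overlap it.

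The remaining classes gave little for the 6 genes. In CD8 T-like cells, where 11.0% of 8575 genes were at least 1.5-fold higher and 13.9% lower, none of 5 tested genes was. In NK-like cells none of 3 was, beside 11.6% of 5781 genes higher and 16.5% lower. Tumour-like cells had 2 of 3 lower, Adora2a on 15 and 31 UMIs and Ada on 14 and 28, beside 6.91% of 11275 genes higher and 7.84% lower.

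Enzymes of successive steps were also looked at in the same cells. Among Treg-like cells, 27 of 277 in the IL-27 matrix (9.75%) and 16 of 187 in the control matrix (8.56%) had UMIs of both Entpd1 and Nt5e. Nt5e was detected in 36.5% of Treg-like cells with an Entpd1 UMI and 33.5% of those without in the IL-27 matrix, and in 32.0% and 25.5% in the control matrix. The share was somewhat higher among Entpd1-bearing cells in both matrices, a difference not tested. In CD8 T-like cells, Cd38 was detected in 45.9% of 37 Entpd1-bearing cells and 11.6% of the rest in the IL-27 matrix, and in 49.2% of 122 and 22.9% of the rest in the control matrix. These shares are at full depth. After thinning, Cd38 was detected in 7.69% of 13 Entpd1-bearing cells and 3.08% of the rest in the IL-27 matrix, but in 3.45% of 29 and 5.50% of the rest in the control matrix. Each matrix then held 1 cell with both. Among neutrophil-like cells thinned to 1000 UMIs, 33 of 3000 in the IL-27 matrix and 26 of 3942 in the control matrix held both Entpd1 and Nt5e. Nt5e was detected in 2.14% of Entpd1-bearing cells and 1.79% of the rest in the IL-27 matrix. In the control matrix the shares were 1.83% and 1.23%. The class with most Entpd1 transcripts thus rarely showed a transcript of the next enzyme at this depth, with or without an Entpd1 UMI.

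A list of 34 other genes of the pathway, in 4 groups, was counted beside the 6. It covers other enzymes that make nucleosides (9 genes), transport and breakdown (10), sensing through other receptors and cyclic AMP signalling (9), and ATP release and ATP receptors (6). In neutrophil-like cells 22 had at least 20 UMIs, of which 1 was at least 1.5-fold higher, Crem, and 1 lower, Ahcy, beside 11.8% and 9.47% of all genes, with a median log2 ratio of 0.03 beside 0.03 over all 9238 genes. In Treg-like cells 18 did, of which 2 were higher, Creb1 and Pde4d, and 3 lower, Slc28a2, Adk and Ahcy, beside 10.0% and 9.91% of all genes, with a median of -0.07 beside -0.01. In C1q macrophage-like cells 4 of 23 were higher and 2 lower, beside 6.18% of all genes each way. In CD8 T-like cells 2 of 17 were higher and 6 lower, beside 11.0% and 13.9%. In tumour-like cells none of 17 was higher and 1 lower, beside 6.91% and 7.84%.

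Crem, which encodes a modulator of the cyclic AMP response element and is itself induced by cyclic AMP, was past 1.5-fold in more classes than any other sensing gene of the list. It had 194 CPM in neutrophil-like cells of the IL-27 matrix and 105 CPM in those of the control matrix, a ratio of 1.85 (1.70 to 2.01). Dcstamp macrophage-like cells gave 237 and 145 CPM (1.64, 1.47 to 1.83), mature dendritic-like cells 268 and 165 CPM (1.63, 1.38 to 1.93), type 2 dendritic-like cells 298 and 189 CPM (1.57, 1.31 to 1.89) and monocyte-like cells 186 and 120 CPM (1.54, 1.22 to 1.95). Crem was past 1.5-fold in these 5 of 11 classes, and its interval lay above 1 in 8. In CD8 T-like cells (219 and 214 CPM) and type 1 dendritic-like cells (455 and 456 CPM) the interval of the ratio held 1. Adora2a and Adora2b, the receptors that raise cyclic AMP, were not higher past the fold in any class tested. Gnas, which encodes the stimulatory G protein, and Pde4b, which encodes an enzyme that degrades cyclic AMP, were past the fold in none of the 11 and 10 classes in which they were counted.

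Other genes of the list differed by class. Ahcy, which encodes the enzyme that splits S-adenosylhomocysteine into homocysteine and adenosine, was at least 1.5-fold lower in 9 of 10 classes, 5 of them with an interval below 1, for example 31.3 against 62.7 CPM in Treg-like, 25.4 against 58.0 CPM in CD8 T-like and 59.0 against 89.6 CPM in tumour-like cells, IL-27 matrix before control. Slc29a3, a lysosomal nucleoside transporter, was higher in C1q macrophage-like cells, with 58.1 CPM in the IL-27 matrix and 35.9 CPM in the control matrix (1.62, 1.34 to 1.96), and so was Slc28a2, a concentrating nucleoside transporter, with 15.7 and 8.01 CPM (1.96, 1.33 to 2.91). Enpp1, an ATP-splitting ectoenzyme, had 13.2 and 7.53 CPM in the same class (1.75, 1.16 to 2.66), and P2ry12, a receptor of ADP, 10.9 and 6.41 CPM (1.70, 1.08 to 2.69). Slc29a3 was also past the fold in Dcstamp macrophage-like cells, with 38.6 and 25.7 CPM (interval of the ratio 1.15 to 1.97). In monocyte-like cells Slc29a3 had 32.1 and 48.7 CPM (0.660, 0.408 to 1.05), and Prkaca, which encodes a catalytic subunit of protein kinase A, 19.7 and 30.6 CPM (0.645, 0.345 to 1.17), both with an interval that held 1. Bst1, a relative of Cd38, was lower in Dcstamp macrophage-like cells, with 29.5 CPM in the IL-27 matrix and 48.0 CPM in the control matrix (0.614, 0.479 to 0.784). In CD8 T-like cells the IL-27 matrix held less Dpp4, a surface peptidase, with 32.5 CPM against 80.9 CPM in the control matrix (0.402, 0.248 to 0.621), less Slc29a1, a nucleoside transporter of the cell membrane, with 24.0 against 47.5 CPM, and less Panx1, a channel that lets ATP out of cells, with 35.3 against 62.4 CPM. Slc28a2 there had 31.1 CPM with IL-27 and 19.3 CPM in the control (1.61, 0.917 to 2.74). Pde4d, another enzyme that degrades cyclic AMP, had 106 CPM in NK-like cells of the IL-27 matrix and 44.9 CPM in those of the control matrix (2.36, 1.42 to 4.09), and 168 and 111 CPM in Treg-like cells (interval of the ratio 1.23 to 1.84). Creb1, a transcription factor activated by cyclic AMP signalling, had 69.0 and 45.8 CPM in Treg-like cells (1.51, 1.10 to 2.09) and 93.9 and 62.0 CPM in NK-like cells (1.52, 0.948 to 2.47). Panx1 in NK-like cells had 41.7 and 68.4 CPM (0.610, 0.344 to 1.07), and Slc28a2 in Treg-like cells 13.3 and 23.6 CPM (0.565, 0.316 to 0.997). Adk, which returns adenosine to AMP inside the cell, had 23.2 CPM in Treg-like cells with IL-27 and 38.4 CPM in those of the control (0.605, 0.390 to 0.931).

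**Figure D5:**
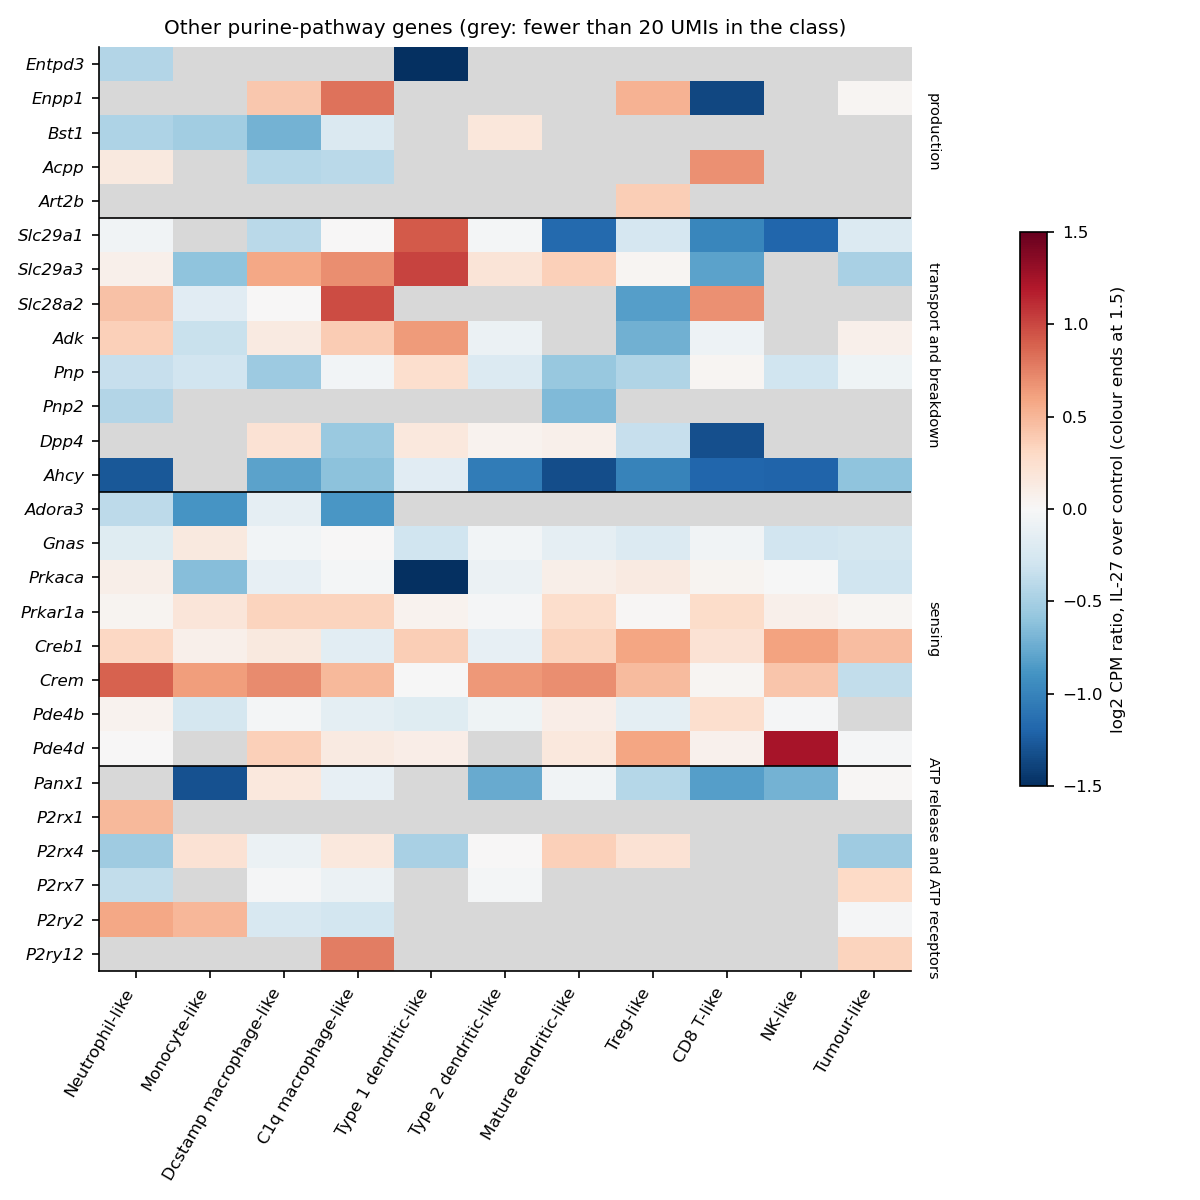
Log2 ratio of CPM, IL-27 over control (colour), for 27 of the 34 other pathway genes (rows, in 4 groups) in 11 classes (columns); grey cells had fewer than 20 UMIs. Crem is past 1.5-fold higher in 5 classes and Ahcy past 1.5-fold lower in 9 of 10, while Gnas and Prkar1a stay within 1.5-fold in all 11.

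The genes whose levels ran most like each of the 6 over the 22 points of class and matrix were sought among 10473 genes, by Pearson's r of log2(CPM + 10). Classes of 1 matrix share a library, so r is a description. Entpd1 ran with Vav1 (r = 0.91), Tmem38b and Slfn1. Nt5e ran with Impa2 (0.87), Serinc3 and Gbp7, and Cd38 with Rcan1 (0.83), Nr1h3 and Usf2. Adora2a ran with Arl5c (0.92), Eif4e3 and Vopp1, Adora2b with Pstpip2 (0.95), Ifi207 and Oas1g, and Ada with Cd72 (0.92), Tsc22d3 and Adcy3. Among the 6 genes themselves the highest r was 0.52, for Entpd1 and Adora2b, and the lowest was -0.41, for Adora2b and Ada.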

How the data were processed

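Cells of 1 IL-27 and 1 control matrix were compared. The authors deposited UMI counts per gene and cell, made with Cell Ranger 4.0 on mm10 per the submitters' processing notes. Kept cells had 200 or more genes, 500 or more UMIs and less than 10% mitochondrial UMIs. They were put into classes by numbers of detected markers, without clustering. Doublets were handled by leaving out cells with markers of several lineages, since a doublet caller marked 0 control cells. Counts were summed per class and matrix. Ratios have exact binomial and levels exact Poisson intervals (95%), which cover counting error only. A gene counts as past the fold at 1.5-fold with at least 20 UMIs over both matrices. No test was possible with 1 matrix per group. Sums and ratios were tested on simulated counts. The genes described beside the 6 were those of the pathway list with at least 50 UMIs and past the fold, and the 3 with the highest r. Members, lists and markers were chosen with earlier results of these data known. Gate thresholds, depth bins and neutrophil state genes were set after the data were seen. Python 3.11.15, numpy 2.4.6, scipy 1.17.1, pandas 2.3.3 and scanpy 1.11.5 were used. Alternatives were other gates, clusters, thinned cells and filters on cells.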

Additional observations from a re-analysis of the deposited data

Results flagged for a closer look

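Entpd1 differed in opposite directions in a pair of classes, with a ratio of IL-27 over control of 1.69 in neutrophil-like cells and 0.522 in type 1 dendritic-like cells. The difference between the classes was not tested, and the value in type 1 dendritic-like cells rests on 39 UMIs in 60 cells of the IL-27 matrix and 62 UMIs in 53 cells of the control matrix.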

How the results depend on the processing

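With 1 matrix per group, no ratio carries biological error, and no replicate could be left out. No paired analysis was possible because each group has 1 matrix. Over 412 recomputed ratios of the 6 genes, 379 stayed inside the interval first given and 30 left it. The other 3 were counted apart as reversals, a count that does not hold every ratio that crossed 1. Entpd1 in Dcstamp macrophage-like cells, at 1.18, fell as low as 0.810 under an alternative. Nt5e in C1q macrophage-like cells, at 0.928, rose as high as 1.335. Removing the shared barcodes, an alternative chosen after the data were seen, kept all 47 inside. Of 44 ratios recomputed on cells thinned to 1000 UMIs, 28 stayed inside, 14 left and 2 were counted as reversals. Thinned, the ratio was 1.15 for Nt5e in Treg-like cells, 0.831 for Cd38 and 0.574 for Ada in C1q macrophage-like cells, 0.580 for Adora2a in Dcstamp macrophage-like cells and 0.527 for Adora2b in neutrophil-like cells. It also turned Cd38 to 1.41 in mature dendritic-like cells and to 0.683 in Treg-like cells, where classes from clusters gave 0.996. These thinned Cd38 values rest on very few cells with a UMI. They were 2 of 182 IL-27 and 1 of 128 control mature dendritic-like cells, and 2 of 274 and 2 of 187 Treg-like cells. A stricter gate gave 1.77 for Entpd1 in neutrophil-like cells, and leaving out the 1% of cells with most Adora2b gave 0.330 there. Monocyte-like cells formed no cluster, so that alternative gave no value for them. With a minimum of 1 UMI, 2 pathway genes were past the fold upward and 5 downward in neutrophil-like cells, beside 24.1% and 15.8% of all genes at that minimum, and 6 upward and 5 downward in Treg-like cells, beside 23.0% and 18.5%. With a minimum of 100 UMIs, 0 were past it downward in neutrophil-like cells, beside 5.45% of all genes, and 1 in Treg-like cells, beside 5.25%. Upward at that minimum were Crem in neutrophil-like cells, beside 8.14% of all genes, and Creb1 and Pde4d in Treg-like cells, beside 5.77%. The causes of these movements were not tested. Classes under 100 cells and counts under 50 UMIs limit what can be read at this depth.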

Other observations

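Some small or ungated sets of cells held values of the 6 genes that stand in no comparison above. Endothelial-like cells, 7 in each matrix, had 283 CPM of Entpd1 (14 UMIs) in the IL-27 matrix and 165 CPM (6 UMIs) in the control matrix, next to neutrophil-like cells in level, and their Nt5e rested on 4 UMIs in each. CD4 T-like cells had 15 Entpd1 UMIs in 116 cells of the IL-27 matrix and 0 UMIs in 49 cells of the control matrix, which allows up to 12.4 CPM at 3 counts. Cells that met no gate, at median depths of 901 and 1024 UMIs, had 117 CPM of Entpd1 in the IL-27 matrix and 70.3 CPM in the control matrix, a ratio of 1.66 (1.36 to 2.03). The gates give them no cell type. Clusters named neutrophil held 4094 IL-27 and 5039 control cells, more than the 3568 and 4365 in the gated class. How many of the cells that met no gate lay in those clusters was not counted. Cells with markers of several lineages had 71.2 and 78.3 CPM of Entpd1, with a ratio of 0.909 (0.824 to 1.00).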
